A study of Mus musculus with 9 samples.

Results

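The genes described here encode the machinery by which a cell makes cholesterol and fatty acids, and were measured in haematopoietic stem cells (HSCs) from young mice, from old mice, and from old mice with an inhibitor of sphingosine kinase 2 applied. They are 30 named genes, taken by gene symbol as rows of the deposited count table, and all 30 were found among its 23317 rows. Of these, 29 had enough reads to enter the test over 14227 genes, and Scd1 did not. The members comprise 18 enzymes of the route from acetyl-CoA units to cholesterol, 5 regulators of that route, the sterol carrier Stard4, and 6 enzymes that make, desaturate or elongate fatty acids.

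Cholesterol is built from acetyl-CoA through mevalonate, farnesyl diphosphate, squalene and lanosterol, and the same mevalonate route supplies isoprenoid groups for protein prenylation and ubiquinone. The enzymes are known targets of the SREBP transcription factors, which are held in the endoplasmic reticulum by the SCAP and INSIG proteins while sterols are plentiful and are released to the nucleus when sterols fall. Fatty acids are built from the same acetyl-CoA by ATP citrate lyase, acetyl-CoA carboxylase and fatty acid synthase, and are then desaturated and elongated. In blood-forming cells both routes supply membrane lipid for dividing progeny.

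The samples were 9 low-input RNA sequencing libraries of wild-type mouse bone marrow HSCs, in 3 groups of 3 libraries. No treatment is named for the young and the old HSCs, and the third group was old HSCs treated with ABC294640, which the submitters describe as a specific inhibitor of SphK2, the kinase that makes sphingosine 1-phosphate. The labels give mouse ages of 2 to 4 months or 20 to 24 months, read here as the young and the old groups, and 1500 sorted cells for each library. How the cells were sorted, the mouse strain, and how, how long and at what dose ABC294640 was given, to the mice or to the cells, are not stated in the labels. Separate animals for separate libraries are not stated either, so the p-values rest on a spread between libraries that may be technical.

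Library totals ran from 16663460 to 23254133 counts, and levels are CPM, that is counts scaled to a common library size with TMM (trimmed mean of M values) factors. All 10 HSC markers of the list, among them Kit, Procr and Slamf1, were above 1 CPM on average, and their summed level was 603 to 615 CPM in young, 507 to 516 CPM in old and 523 to 525 CPM in treated old libraries. That of 12 granulocyte and monocyte markers, led by the granule protein genes Mpo and Elane, was 35566 to 39912 CPM in young, 52500 to 55879 CPM in old and 52355 to 53653 CPM in treated old libraries. These granule genes are also made by myeloid progenitors, and 9 of the 12 were higher and 2 lower in old than in young HSC. Between young and old libraries the summed level went from 336 to 379 CPM to 672 to 757 CPM for B and plasma cell markers, from 788 to 831 CPM to 352 to 355 CPM for erythroid markers and from 399 to 436 CPM to 199 to 225 CPM for megakaryocyte markers. Of these markers, 2 were higher and 1 lower of 6 tested for B and plasma cells, 4 of 4 tested were lower for erythroid cells, and 1 of 4, Pf4, was lower for megakaryocytes. Pf4 went from 375 ± 16.6 to 178 ± 13 CPM (SD, n = 3) and holds most of that sum, while Itga2b, Gp9 and Gp1ba were not called. T and NK cell markers were 1 higher and 0 lower of 2 tested, and endothelial and stromal markers 0 higher and 2 lower of 4. These marker counts are to be read beside all genes tested, of which 19.7% were higher and 19.9% lower with age. The 6 adipocyte markers were each under 1 CPM, with Adipoq at 0.181 CPM in young, 0.0204 CPM in old and 0.0729 CPM in treated old HSC. The Y-linked gene Eif2s3y had 2.55 ± 0.848 CPM in young, 78.1 ± 2.92 CPM in old and 77.4 CPM in treated old HSC (SD, n = 3), so that age and the make-up of the donors by sex cannot be told apart. Young replicate 1 stood apart from its group, with a chi-square per degree of freedom over genes of 8.36 and 7.67 against the other young libraries, which differed from each other by 2.86. Leaving that library out ended the calls with age of Hsd17b7 and Fasn and added one for Srebf1, and changed no other call with age among the members. Old replicate 2 also stood apart, at 5.38 and 4.81 against the other old libraries, which differed from each other by 2.61. Leaving it out ended the same 2 calls, of Hsd17b7 and Fasn, and turned the sign of Tm7sf2, which was not called with or without it (log2 fold change 0.07 without it).

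Most of the cholesterol synthesis enzymes among the members rose with age, and none of the fatty acid enzymes among the members was called higher. Of the 29 members tested, 12 were higher and 4 lower in old than in young HSC at an adjusted p under 0.05 (edgeR's quasi-likelihood test, Benjamini-Hochberg adjustment over 14227 genes), where 19.7% of all genes tested were higher and 19.9% lower. Of the 18 enzymes from acetyl-CoA to cholesterol, 11 were higher and 1, Lss, was lower, with a median log2 fold change of 0.36 beside -0.03 over all genes tested. Of the 5 fatty acid enzymes tested, 0 were higher and 2 were lower, with a median of -0.01. The inhibitor moved none of these genes past the threshold. In treated against untreated old HSC, 0 of 29 members were called, where 0.731% of all genes were higher and 0.422% lower. The libraries are bulk samples, so fewer cells of a type and less RNA per cell cannot be told apart in any of these values. The marker lists and the Y-linked gene named above moved with age beside these members, and their part in the differences was not tested.

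**Figure D1:**
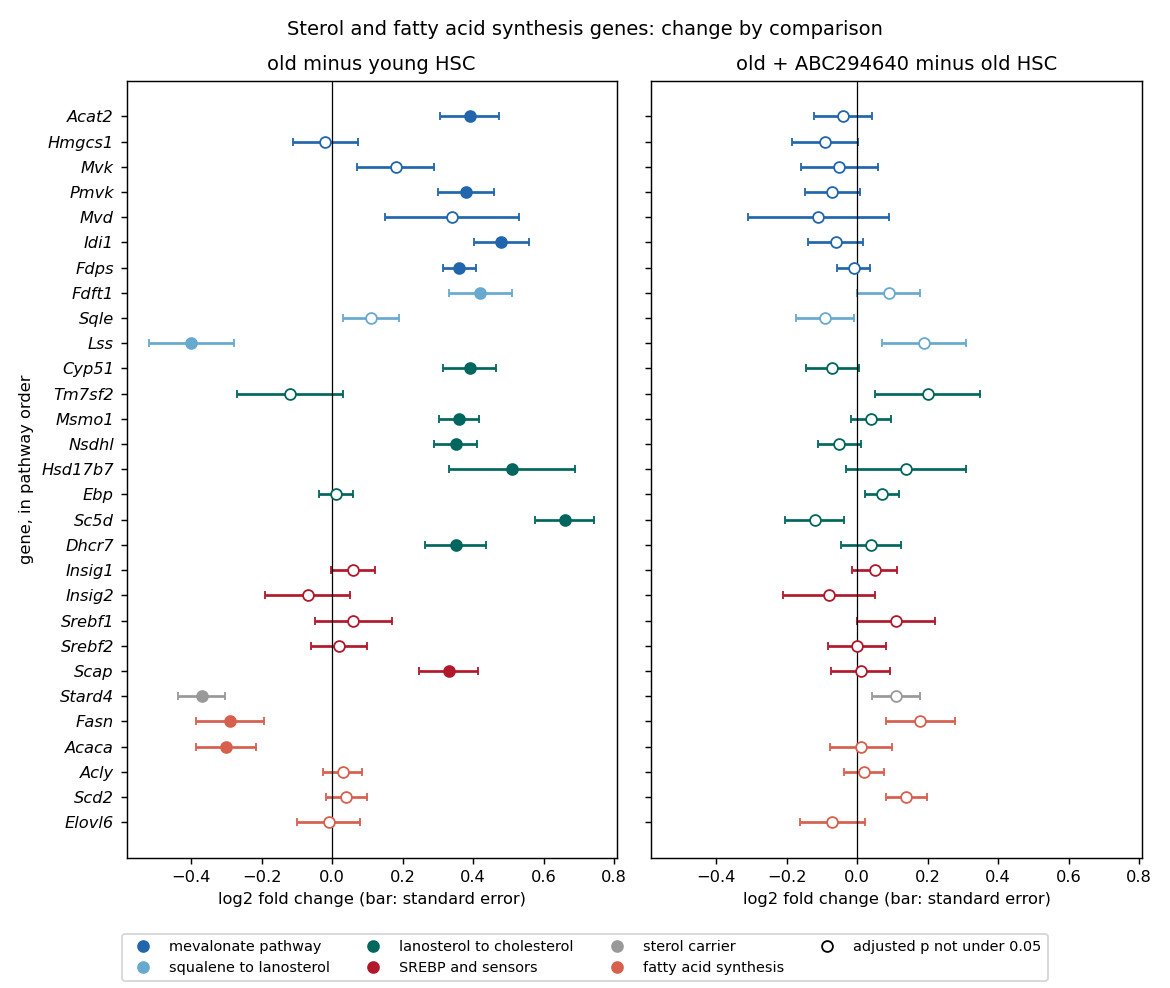
Log2 fold change (horizontal axis) with its standard error for the 29 members tested, in pathway order, for old against young HSC (left) and for treated against untreated old HSC (right). Filled points have an adjusted p under 0.05; 16 are filled on the left and 0 on the right, where values lie between -0.12 and 0.20.

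Promoters of 24 of the 30 genes were matched by symbol in a RefSeq table of windows from 250 bases before to 50 bases after each start (build GRCm38.p6). The motifs searched, on both strands, were the core of the sterol regulatory element, TCACCCCAC, to which SREBP binds, and the partner motifs CCAAT, which NF-Y binds, and GGGCGG, the GC box that Sp1 binds. CCAAT was present for 20 of the 24 genes (83.3%) and for 41.1% of 27025 genes with a window, counting a gene once over its windows. The GC box was also present for 20 of 24, against 38.2% of all genes. The SREBP core was exact in 1 of 24 members (4.17%), Hmgcs1, against 0.614% of all genes. A match is only a description of these letters, and a site with other letters is not found by this search. For CCAAT the share was 8 of 10 among members higher in old HSC, 2 of 3 among those lower and 10 of 11 among those not called. For the GC box it was 9 of 10, 1 of 3 and 10 of 11 in the same order, and for the SREBP core 0 of 10, 0 of 3 and 1 of 11.

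Examples are printed as the 250 bases before the start, 5′ to 3′ on the gene's own strand, because they show the member with the SREBP core and 3 that moved with age: Sc5d and Idi1 were higher and Fasn lower in old HSC, a choice made after their values were seen. Capitals mark the SREBP core and CCAAT on either strand (ATTGG on the other strand). They lie at chr13:119690101-119690350 on the plus strand (Hmgcs1), chr9:42264301-42264550 on the minus strand (Sc5d), chr13:8885356-8885605 on the plus strand (Idi1) and chr11:120824548-120824797 on the minus strand (Fasn). In Hmgcs1 the SREBP core begins at -137 from the start, between CCAAT motifs that begin at -176 and -45, with a further one at -237. In Sc5d there is a single CCAAT motif, at -24, and in Idi1 there are motifs at -45 and -14. Fasn holds a CCAAT at -90 and a pair that overlap as a palindrome at -62 and -59. All 4 are RefSeq windows of GRCm38.p6.

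Hmgcs1: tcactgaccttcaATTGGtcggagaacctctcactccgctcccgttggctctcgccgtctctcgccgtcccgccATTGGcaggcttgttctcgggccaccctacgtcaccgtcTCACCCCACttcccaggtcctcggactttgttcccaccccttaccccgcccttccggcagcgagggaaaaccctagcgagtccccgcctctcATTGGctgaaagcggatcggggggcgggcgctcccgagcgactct

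Sc5d: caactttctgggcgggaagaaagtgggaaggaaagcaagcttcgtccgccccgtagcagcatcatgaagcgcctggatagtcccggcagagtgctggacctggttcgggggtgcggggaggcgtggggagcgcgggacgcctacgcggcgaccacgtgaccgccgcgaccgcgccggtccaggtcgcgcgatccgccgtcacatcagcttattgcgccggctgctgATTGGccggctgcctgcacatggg

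Idi1: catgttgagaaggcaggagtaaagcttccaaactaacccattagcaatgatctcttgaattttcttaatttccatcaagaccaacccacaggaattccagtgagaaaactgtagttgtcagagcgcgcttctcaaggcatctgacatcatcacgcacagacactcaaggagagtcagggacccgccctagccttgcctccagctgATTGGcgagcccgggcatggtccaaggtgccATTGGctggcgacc

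Fasn: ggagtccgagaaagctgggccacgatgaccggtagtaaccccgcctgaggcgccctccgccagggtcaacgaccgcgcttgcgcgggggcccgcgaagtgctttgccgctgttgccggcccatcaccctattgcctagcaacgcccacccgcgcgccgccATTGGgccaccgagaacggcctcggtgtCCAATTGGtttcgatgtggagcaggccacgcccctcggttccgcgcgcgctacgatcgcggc

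The first steps join acetyl-CoA units into mevalonate and on to farnesyl diphosphate. Of these 7 enzymes 4 were called higher with age and 0 lower, beside 19.7% and 19.9% of all genes tested. With so few genes, 0 called lower is not read as a result about this step. Fdps, the synthase of farnesyl diphosphate, from which the sterol and prenyl branches part, was the most abundant member per length and lies on chromosome 3 from 89093588 to 89101959, on the minus strand (GENCODE M21, GRCm38). It had 186, 175 and 172 CPM in the young libraries, 230, 219 and 237 CPM in the old and 226, 232 and 221 CPM in the treated old. Every old library was above every young one, and the treated libraries lay among the old. The rise from young to old was 1.28-fold (log2 fold change 0.36 ± 0.047 SE, adjusted p = 1.19e-06). Idi1, the isomerase that makes the reactive isoprenoid unit, stood at 37.4, 44.8 and 48.5 CPM in young, 60.6, 64 and 57.7 CPM in old and 57.6, 54.3 and 63.4 CPM in treated old libraries. Its young and old libraries did not overlap, and it rose 1.4-fold (0.48 ± 0.078, adjusted p = 3.62e-05).

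Acat2, the thiolase that joins acetyl-CoA units in the cytosol, had 18.4, 19.1 and 20.8 CPM in young, 23.7, 25.9 and 26.9 CPM in old and 22.6, 26.7 and 25.3 CPM in treated old libraries. The old libraries were all above the young, a rise of 1.31-fold (0.39 ± 0.084, adjusted p = 0.000598). Pmvk, the second of the kinases acting on mevalonate, had 27.5, 23 and 25.9 CPM in young, 30.4, 36 and 33.1 CPM in old and 31.9, 32.8 and 30.3 CPM in treated old libraries. It too rose without overlap, by 1.3-fold (0.38 ± 0.079, adjusted p = 0.000464). Counts of Acat2, Fdps and Idi1 are uncertain where near copies could share reads: 43.7%, 27.9% and 27.1% of their 31-base words recur in transcripts of other genes, most of all Acat3 for Acat2. Acat3 itself stood at 0.928 ± 0.436 CPM in young and 0.548 ± 0.0757 CPM in old HSC (SD, n = 3).

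The other 3 mevalonate enzymes did not pass the threshold. Hmgcs1, the synthase of the HMG-CoA step and the member with the SREBP core, had 17.3, 18.5 and 20.6 CPM in young, 18.8, 19.7 and 17 CPM in old and 17.1, 16.3 and 18.8 CPM in treated old libraries. The 3 groups overlapped, and the 95% interval of its log2 change with age ran from -0.24 to 0.21, below the rise estimated for Acat2, Pmvk, Idi1 or Fdps. Mvk, the first mevalonate kinase, had a log2 fold change of 0.18 ± 0.11 (adjusted p = 0.186). Mvd, the decarboxylase that follows, was low, at 3.25 ± 0.916 CPM in young and 4.15 ± 0.625 CPM in old HSC (SD, n = 3), and its log2 fold change of 0.34 ± 0.19 was as large as that of called members but was not called (adjusted p = 0.174).

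The 3 enzymes from farnesyl diphosphate to lanosterol went separate ways. Fdft1, which makes squalene and commits the pathway to sterols, had 20, 24.4 and 24.6 CPM in young, 34.8, 29.8 and 27.4 CPM in old and 32, 31.2 and 34.5 CPM in treated old libraries. All old libraries exceeded all young ones, and the rise was 1.34-fold (0.42 ± 0.09, adjusted p = 0.000709). Fdft1 overlaps exons of Ctsb on the other strand, and no source says that strand was used in counting. Ctsb, a lysosomal protease gene, rose as well, from 216 ± 8.71 to 273 ± 8.43 CPM (1.26-fold, adjusted p = 3.75e-06). Of the 31-base words of Fdft1, 31.9% recur in transcripts of other genes, most of all Ctsb. Reads from the stretch the pair shares cannot be told apart if strand was not used. Their part in the rise of Fdft1 was not tested. Sqle, the epoxidase that acts on squalene, had 20 ± 1.01 CPM in young and 21.7 ± 1.4 CPM in old HSC and was not called (0.11 ± 0.08, adjusted p = 0.279). Lss, on chromosome 10 from 76531588 to 76557138 on the plus strand, closes the rings to give lanosterol. Its level was 11.9, 12.6 and 10.7 CPM in young, 8.3, 8.8 and 9.61 CPM in old and 8.76, 11.5 and 10.3 CPM in treated old libraries. The old libraries were all below the young and the treated ones spanned both. The fall with age was 1.32-fold (-0.40 ± 0.12, adjusted p = 0.00905), and Lss alone among the 18 sterol enzymes was called lower.

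Of the 8 enzymes that turn lanosterol into cholesterol, 6 were called higher with age and 0 lower, beside 19.7% and 19.9% of all genes tested. Here too, 0 called lower of so few genes is not read as a result. The largest change with age among the members tested was in Sc5d (chromosome 9 from 42251595 to 42264256, minus strand), a desaturase of the sterol ring, which had 27.7, 34.4 and 31.9 CPM in young, 45.9, 46.1 and 57 CPM in old and 44.2, 45 and 47.7 CPM in treated old libraries. Neither the old nor the treated old libraries overlapped the young, and old replicate 3 was the highest library. The rise with age was 1.59-fold (0.66 ± 0.084, adjusted p = 1.02e-06). Msmo1, an oxidase that takes part in removing methyl groups from the ring, stood at 51.8, 50.1 and 56.9 CPM in young, 67.2, 68.9 and 68.2 CPM in old and 68.8, 69.1 and 72.3 CPM in treated old libraries. The old and treated old libraries lay close together above the young libraries (1.29-fold, 0.36 ± 0.056, adjusted p = 1.54e-05).

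Nsdhl is the dehydrogenase that acts after Msmo1. It had 39, 35.6 and 38 CPM in young, 47.8, 47.3 and 48.5 CPM in old and 45.6, 44.6 and 48.8 CPM in treated old libraries. It rose without overlap by 1.27-fold (0.35 ± 0.062, adjusted p = 8.23e-05), and it is X-linked, as is Ebp. Cyp51, the lanosterol demethylase, had 21.9, 19.2 and 21.5 CPM in young, 28.6, 26.5 and 27.4 CPM in old and 26.3, 25.4 and 27 CPM in treated old libraries. This was a rise of 1.31-fold with no overlap (0.39 ± 0.076, adjusted p = 0.000225). Akap9, whose exons overlap Cyp51 on the other strand, was not called (34.6 ± 2.05 CPM in young and 34.1 ± 2.55 CPM in old HSC, adjusted p = 0.859). Dhcr7, a reductase of the final steps, had 24.1, 21.7 and 19.4 CPM in young, 30.9, 26.4 and 26 CPM in old and 27.8, 29.9 and 27.9 CPM in treated old libraries. Again the old libraries were all above the young, by 1.27-fold (0.35 ± 0.086, adjusted p = 0.00235).

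Hsd17b7, the keto-reductase of the demethylation cycle, was called on low and scattered values. It had 3.86, 3.97 and 5.11 CPM in young, 4.88, 8.04 and 5.26 CPM in old and 6.67, 6.22 and 7.4 CPM in treated old libraries. Old and young libraries overlapped, and old replicate 2 was far above the other old libraries (1.42-fold, 0.51 ± 0.18, adjusted p = 0.0234). That call ended when 1 library was left out: without old replicate 2 the log2 fold change was 0.25 (adjusted p = 0.283), without young replicate 1 it was 0.44 (0.0613) and without young replicate 2 it was 0.47 (0.0633). Over 18 alternatives its adjusted p ran from 0.00256 to 0.283. Ebp, the isomerase of the sterol ring, was the second most abundant member per length and had nearly equal means, 92.8 ± 1.54 CPM in young and 93.4 ± 2.46 CPM in old HSC (0.01 ± 0.048, 95% interval -0.11 to 0.13, adjusted p = 0.899). Tm7sf2, a sterol reductase, had 6.82 ± 0.788 and 6.33 ± 1.28 CPM and was not called (-0.12 ± 0.15, adjusted p = 0.564).

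**Figure D2:**
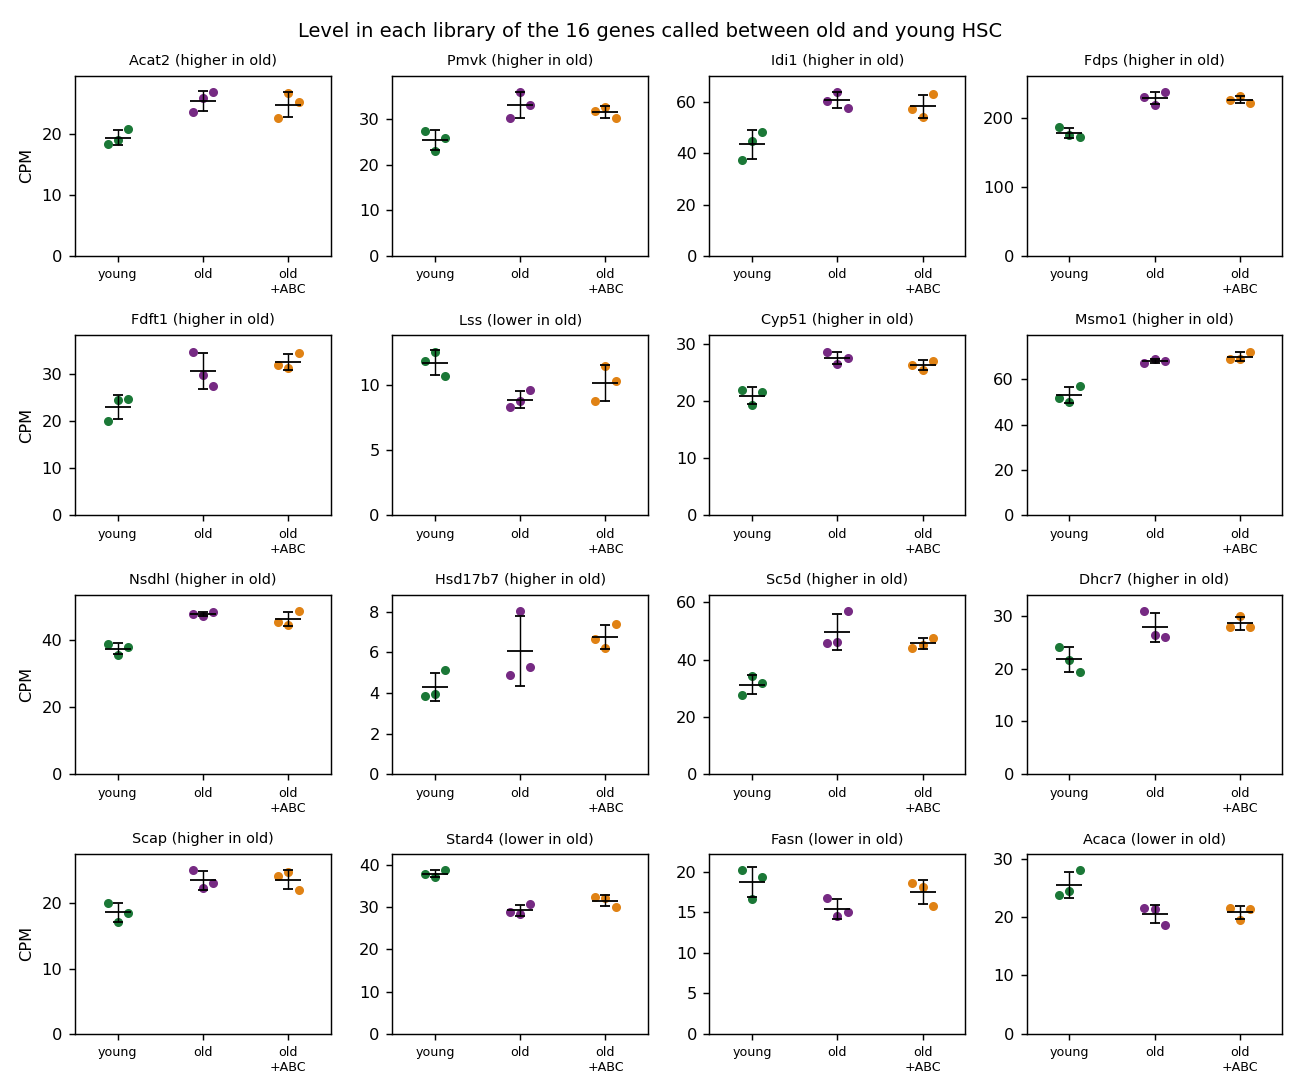
Level in each library, in CPM on axes that start at 0, of the 16 members called between old and young HSC, with the mean (wide bar) and SD of the 3 libraries of each group. In 14 of the 16 panels the old libraries do not overlap the young ones, and Hsd17b7 and Fasn are the exceptions. The panels were chosen by the call on these same libraries, so this count is no separate support. Of all genes tested, 48.4% did not overlap.

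Summed over the 18 sterol enzymes, the level was 622, 614 and 631 CPM in the young libraries, 772, 759 and 782 CPM in the old and 758, 764 and 776 CPM in the treated old. Neither set of old libraries overlapped the young, and old and treated libraries overlapped each other. The mean of the mevalonate enzymes in this sum was higher in old HSC, going from 299 ± 5.98 to 383 ± 4.73 CPM and those after lanosterol from 268 ± 4.23 to 327 ± 8.23 CPM (SD, n = 3); Fdps and Ebp hold the greatest part of these sums. Single libraries of old and young HSC did not overlap for 14 of the 29 members, 11 above and 3 below, where 48.4% of all genes tested did not overlap, a share close to that of the members.

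**Figure D3:**
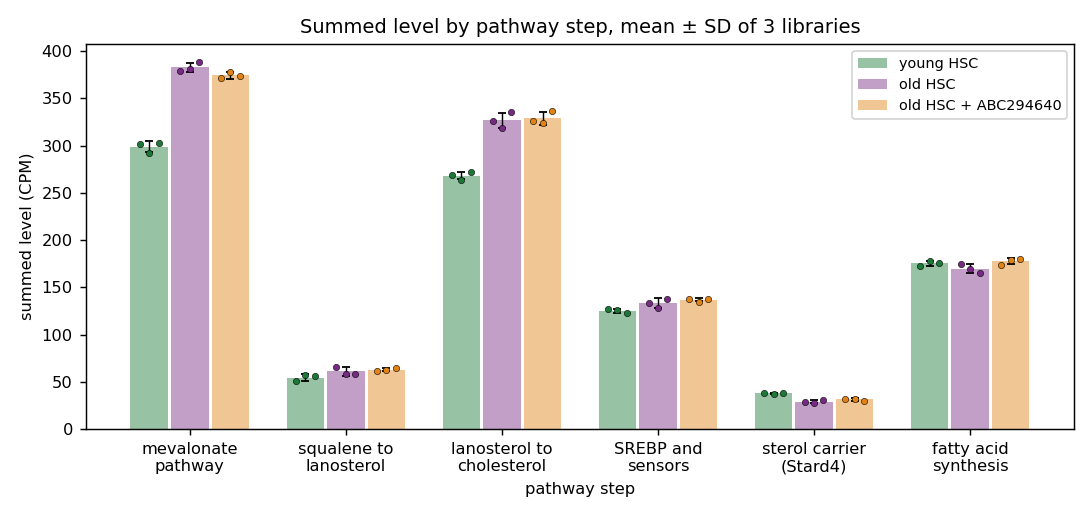
Summed level (CPM, vertical axis from 0) of the members at each step of the pathway. Bars are means of 3 libraries with SD and points are libraries: the mevalonate enzymes stand near 299 CPM in young HSC and at 383 and 374 CPM in old and treated old HSC, and the fatty acid enzymes at 176, 170 and 177 CPM.

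Of the 5 regulators, Scap alone was called. SCAP is the sterol sensor that escorts SREBP to the Golgi for cleavage. Scap had 20.1, 17.2 and 18.6 CPM in young, 25.1, 22.4 and 23.1 CPM in old and 24.2, 24.8 and 22 CPM in treated old libraries. It rose 1.26-fold with no overlap (0.33 ± 0.084, adjusted p = 0.00307). Srebf2, whose product mainly drives the sterol genes, was level at 18.9 ± 0.574, 19.2 ± 0.238 and 19.2 ± 0.743 CPM in young, old and treated old HSC (SD, n = 3), with a 95% interval for the log2 change with age of -0.17 to 0.22. Insig1 and Insig2, which retain SCAP in the endoplasmic reticulum, were not called either. Insig1, itself a known SREBP target, had 58 ± 3.81 CPM in young and 60.5 ± 4.1 CPM in old HSC (0.06 ± 0.062, adjusted p = 0.454). Insig2 had 7.92 ± 0.688 and 7.55 ± 0.463 CPM (-0.07 ± 0.12, adjusted p = 0.69).

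Srebf1, whose product mainly drives fatty acid genes, depended on 1 young library. It had 26.9, 19 and 19.1 CPM in young, 24.3, 20.9 and 23.1 CPM in old and 24.8, 24.5 and 24 CPM in treated old libraries. Young replicate 1 was above every other library, and the log2 fold change with age was 0.06 ± 0.11 (adjusted p = 0.669). Without that library it was 0.26 and past the threshold (adjusted p = 0.0181), and over 18 alternatives the adjusted p ran from 0.0181 to 0.962. Exons of Srebf1 overlap Rai1 on the other strand.

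Stard4, a carrier that moves cholesterol between membranes and is a known SREBP target, went against the sterol enzymes. Its level was 38, 37.1 and 38.8 CPM in young, 28.9, 28.3 and 30.7 CPM in old and 32.4, 32.2 and 30.1 CPM in treated old libraries. The old and treated libraries were all below the young, with little spread inside the groups. The fall with age was 1.3-fold (-0.37 ± 0.067, adjusted p = 8.81e-05).

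Of the 5 fatty acid enzymes tested among the members, Acaca and Fasn were called lower with age and the other 3 were not called. Acaca, the acetyl-CoA carboxylase that commits acetyl-CoA to fatty acids, had 23.8, 24.5 and 28 CPM in young, 21.5, 21.4 and 18.7 CPM in old and 21.5, 19.4 and 21.4 CPM in treated old libraries. Old and treated old libraries were all below all young libraries (1.23-fold lower in old, -0.30 ± 0.085, adjusted p = 0.00637). Without young replicate 3 or old replicate 3 the log2 fold change was -0.22 in both cases, with adjusted p = 0.0677 and 0.0718 (range 0.000876 to 0.0718 over 18 alternatives), and 33.5% of its words recur in other transcripts. Fasn, the fatty acid synthase, had 20.2, 16.7 and 19.4 CPM in young, 16.8, 14.5 and 15 CPM in old and 18.6, 18.1 and 15.8 CPM in treated old libraries. Its groups overlapped by 1 library, and the fall was 1.22-fold (-0.29 ± 0.096, adjusted p = 0.0212). The Fasn call was lost without young replicate 1 (log2 fold change -0.22, adjusted p = 0.088), young replicate 3 (-0.25, 0.0786), old replicate 2 (-0.22, 0.115) or old replicate 3 (-0.25, 0.0937), and with DESeq2 (-0.25, 0.094), within a range of 0.00338 to 0.115 over 18 alternatives.

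Acly, the citrate lyase that supplies cytosolic acetyl-CoA to both routes, had 57.7 ± 1.95 CPM in young and 59 ± 1.76 CPM in old HSC (0.03 ± 0.055, 95% interval -0.10 to 0.17, adjusted p = 0.665). Elovl6, an elongase of saturated fatty acids, had 21 ± 1.58 and 20.9 ± 2.2 CPM (-0.01 ± 0.09, adjusted p = 0.952). Scd2 was the main stearoyl-CoA desaturase gene of these cells. It had 49.8, 54 and 53.5 CPM in young, 54.7, 56.4 and 50.3 CPM in old and 57.9, 59.1 and 60.5 CPM in treated old libraries, so that all treated libraries were above all others. Scd1, its paralogue, known as the main form in liver, was listed at 0.23 to 0.622 CPM over the 9 libraries and was too low to test.

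Levels per length of exon (CPM per kb) ordered the members, with all annotated exons of a gene joined to give its length. In young HSC Fdps stood at 42.3 and Ebp at 40.2 CPM per kb, followed at a distance by Insig1 at 18.7, Pmvk at 14.9, Nsdhl at 13.2 and Idi1 at 12.4 CPM per kb. The means of Fdps and Ebp differed little in young HSC, whereas in old HSC they were 54.3 and 40.5 CPM per kb. At the low end above Scd1 (0.0881 CPM per kb) stood Hsd17b7 at 0.845, Lss at 1.09 and Acaca at 1.49 CPM per kb. Joined exons came to 10787 bases for Lss and 17074 for Acaca, beside 4208 for Fdps, so this order also depends on the annotation. Srebf1 had 3.84 and Srebf2 2.64 CPM per kb in young HSC.

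**Figure D4:**
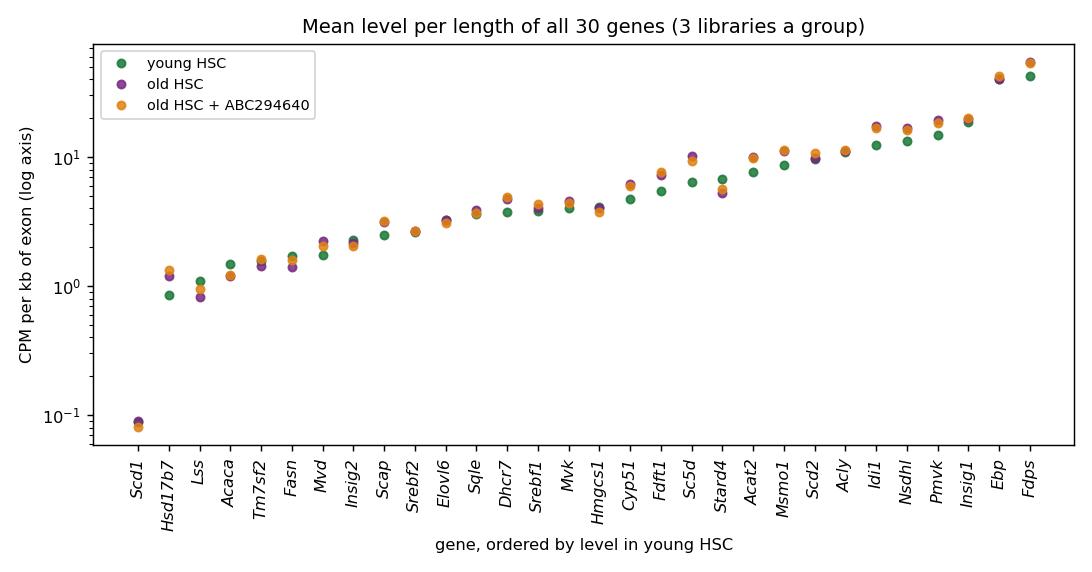
Mean level per kb of exon (log axis, 3 libraries a group) of all 30 members, ordered by the level in young HSC. Levels run from 0.0881 CPM per kb for Scd1 to 42.3 CPM per kb for Fdps, with Ebp next at 40.2 CPM per kb.

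The comparison of treated with untreated old HSC asks what the inhibitor does to these genes in old HSC. In edgeR's test 0 of 29 members passed the threshold, 1 had an unadjusted p under 0.05, and DESeq2 called 0 with 0 members under an unadjusted 0.05. Over all genes tested, 8.79% had an unadjusted p under 0.05. Log2 fold changes of the members ran from -0.12 (Sc5d) to 0.20 (Tm7sf2), with a median of 0.01 beside 0.00 over all genes. For the 12 members higher in old HSC, every 95% interval lay between -0.32 and 0.56. For Fdps the interval was -0.13 to 0.10, for Msmo1 -0.10 to 0.18 and for Cyp51 -0.25 to 0.12, each short of the size of its change with age. For Sc5d it was -0.32 to 0.08, against a change with age of 0.66. A p that misses the threshold does not show that treated and untreated libraries were alike, and for low members such as Hsd17b7 (-0.27 to 0.56) the interval was wide.

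The member with the unadjusted p under 0.05 was Scd2, which stood at 53.8 ± 3.16 CPM in old and 59.2 ± 1.33 CPM in treated old HSC (log2 fold change 0.14 ± 0.059, unadjusted p = 0.0306, adjusted p = 0.475). Scd2 and Ebp were the members whose treated libraries were all above the untreated old ones, 2 of 29 members, where 15.5% of all genes did not overlap. All 7 mevalonate enzymes had log2 fold changes below 0, from -0.11 to -0.01, and none was called. Lss, lower in old HSC, was 8.9 ± 0.663 CPM in old and 10.2 ± 1.35 CPM in treated old HSC (0.19 ± 0.12, adjusted p = 0.708). Fasn was 15.4 ± 1.23 and 17.5 ± 1.47 CPM (0.18 ± 0.099, adjusted p = 0.649).

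Treated old HSC stood against young HSC much as untreated old HSC did, and both comparisons use the same young libraries. Of 29 members 13 were higher and 2 lower in treated old than in young HSC, where 19.3% and 18.7% of all genes tested were called, and libraries did not overlap for 16 members, beside 48.4% of all genes. The same 12 members called higher in old HSC were called here, with the addition of Scd2 (0.18 ± 0.059, adjusted p = 0.0208). Stard4 (-0.27 ± 0.066, adjusted p = 0.00255) and Acaca (-0.29 ± 0.085, adjusted p = 0.00879) were lower, while Lss (-0.21 ± 0.12, adjusted p = 0.167) and Fasn (-0.10 ± 0.095, adjusted p = 0.41) did not pass. Whether the change of Lss or Fasn against young HSC differs between treated and untreated old HSC is the comparison given above, in which neither passed. The Scd2 call ended without young replicate 1 (0.14, adjusted p = 0.0646) or treated replicate 3 (0.16, 0.0745), and the Acaca call without young replicate 3 (-0.21, 0.0776) or treated replicate 2 (-0.23, 0.0672). Srebf1, not called here (0.17, adjusted p = 0.215), passed without young replicate 1 (0.36, 0.00131).

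Neighbouring genes of lipid metabolism, in lists that hold none of the 30 members, were described by the same counts with age, to be read beside the 19.7% of all genes tested that were higher and the 19.9% that were lower. Among 14 partners of the sterol route and the isoprenoid branch, 5 were higher and 0 lower, with a median log2 fold change of 0.09. Lbr, a nuclear membrane protein that is also a sterol reductase, rose from 303 ± 13.4 to 384 ± 5.94 CPM (0.34 ± 0.044, adjusted p = 1.06e-06). Pdss2, which makes the ubiquinone side chain, rose from 10.1 ± 1.46 to 13.1 ± 1.32 CPM (adjusted p = 0.00781), a call lost without old replicate 2 (log2 fold change 0.32). Coq2, also of ubiquinone synthesis, and Fnta, a subunit of the prenyl transferases, rose by 1.13-fold and 1.11-fold (adjusted p = 0.0303 and 0.0236). The Fnta call was lost without young replicate 2 (0.14) or old replicate 3 (0.15) and that of Coq2 without young replicate 3 (0.18), old replicate 1 (0.17) or old replicate 2 (0.15).

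Among 16 genes of SREBP processing and sterol sensing, 5 were higher and 0 lower, with a median of 0.07. Tmem97, a sterol-regulated membrane protein, rose from 184 ± 4.6 to 234 ± 8.52 CPM (0.34 ± 0.045, adjusted p = 1.53e-06) and Mlx, a partner of a glucose-responsive lipogenic factor, from 63.1 ± 1.87 to 85.1 ± 3.69 CPM (0.43 ± 0.054, adjusted p = 7.13e-07). Trib1, a pseudokinase, and Syvn1, a ubiquitin ligase of the endoplasmic reticulum, rose by 1.25-fold and 1.22-fold (adjusted p = 0.00534 and 0.00796), the latter not without old replicate 1 (0.21). Among 16 further genes of fatty acid synthesis and modification, 5 were higher and 1 lower (median 0.02). Elovl5, an elongase of polyunsaturated fatty acids, rose from 108 ± 2.66 to 151 ± 2.14 CPM (0.48 ± 0.045, adjusted p = 4.57e-09), and Hacd3, Tecr and Elovl1, of the elongation cycle, rose by 1.2-fold, 1.12-fold and 1.14-fold (adjusted p = 0.00531, 0.0061 and 0.00792).

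Cholesterol uptake, transport, esterification and efflux genes were 2 higher and 4 lower of 17 tested, close to the shares over all genes (19.7% and 19.9%), with a median of -0.03 beside -0.03 over all genes. Npc2, which carries cholesterol out of lysosomes, fell from 199 ± 5.66 to 157 ± 7.4 CPM (-0.34 ± 0.046, adjusted p = 2.22e-06), and the exporter gene Abcg1 fell from 42.9 ± 1.38 to 35.7 ± 1.98 CPM (-0.27 ± 0.066, adjusted p = 0.0024). Nceh1, a cholesteryl ester hydrolase, rose 1.29-fold (adjusted p = 0.0014) and Cyp27a1, a sterol hydroxylase, fell 1.68-fold (-0.75 ± 0.22, adjusted p = 0.00905), a call lost without old replicate 3 (-0.58). Of 11 triglyceride and lipid droplet genes 5 were higher and 2 lower, with a median of 0.01. Dgat2, which completes triglyceride synthesis, rose from 9.65 ± 0.517 to 33.6 ± 3.18 CPM (1.80 ± 0.086, adjusted p = 1.69e-14), Dgat1, of the same reaction, from 15.5 ± 1.68 to 27.8 ± 0.781 CPM (0.84 ± 0.084, adjusted p = 1.45e-08), and Plin3, a droplet coat protein, from 88.7 ± 3.79 to 157 ± 8.5 CPM (0.82 ± 0.051, adjusted p = 3.02e-12). Pnpla2, the lipase that opens triglyceride breakdown, rose 1.28-fold (adjusted p = 4.45e-05). The 2 called lower were Lpin1 (-0.66 ± 0.14, adjusted p = 0.000468) and Lpin2 (-0.38 ± 0.079, adjusted p = 0.000517). In treated against untreated old HSC 0 genes of any of these 5 lists passed the threshold, with 4 at an unadjusted p under 0.05 by edgeR.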

How the data were processed

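Low-input RNA sequencing was done on HSCs of mouse bone marrow in 9 libraries, with 12 cycles of PCR, per the labels' protocols. The authors deposited 1 table of expected counts per gene and library, of which 56% of non-zero values were whole (tolerance 1e-09). Per the submitters' processing notes the build was mm10 and edgeR 3.24.3, HTSeq 0.10.0, Trim Galore 0.6.2 and STAR 2.6.1d were used; no role is stated, nor the step that left fractions. Groups and replicate numbers came from sample titles. Counts were rounded and tested with edgeR 4.0.16 in R 4.3.3: TMM, the default filter by group (14227 genes), 1 robust quasi-likelihood fit with a mean for each group over the 9 libraries, Benjamini-Hochberg over all genes tested. The fit was also run on simulated counts of independent libraries, drawn with the spread estimated from these data. Such counts cannot address technical replication or the make-up of the donors by sex. Standard errors are the log2 fold change divided by the root of F, and 95% intervals use 6 residual degrees of freedom. Precision rests on totals of 16663460 to 23254133 counts, and reads without molecular identifiers are not independent molecules. Gene positions, exon lengths and 31-base words came from GENCODE M21 (GRCm38), in which all 23317 identifiers were found.

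Members and lists were chosen with earlier results of these data known. All 30 members are accounted for, and those called with age are given in every library. Of each related list up to 4 called genes of smallest p are named, with Lpin1 and Lpin2 added. Alternatives were DESeq2 1.42.0, RLE factors in edgeR, every gene kept, only genes of 5 CPM or more in 3 libraries (called the stricter filter), a fit of the compared groups by themselves, a block for replicate number, and leaving out each library in turn; added after seeing the data were thinning to 16663460 counts, library totals without TMM, and leaving out sex chromosome genes. Deviations of same-numbered libraries from their group means had correlations of -0.081 to 0.132. Between young and old libraries they were 0.063, 0.132 and 0.064 for the same number and -0.096 to 0.035 for different numbers. Same-numbered pairs with a treated library ran from -0.081 to -0.021. Weak correlations do not exclude pairing, so whether the numbers pair samples is not known. Figures used Python 3.11.15 and matplotlib 3.10.9.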

Additional observations from a re-analysis of the deposited data

How the results depend on the processing

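The counts of members called with age (12 higher, 4 lower) and with the inhibitor (0) stayed within 1.5 times under the alternatives run, apart from single left-out libraries. Leaving out each library gave 11 to 12 members higher and 2 to 4 lower in old than in young HSC, 0 called in treated against untreated old HSC, and 12 to 13 higher and 1 to 2 lower in treated old than in young HSC. With the replicate number as a block the counts were 12 and 4, 0 and 0, and 13 and 2, and the block changed no call of a member. Over the 30 genes, 11 calls with age among single results were lost and 1 was gained, all given above except Hsd17b7 with library totals alone (0.43); the cause was not tested. With the stricter filter 12 of 28 members were higher and 4 lower, where 22.2% and 20.5% of 9670 genes were called. Without sex chromosome genes 11 of 27 members were higher and 4 lower. DESeq2 called 1842 genes lower with age against 2838 by edgeR, and without a filter edgeR called 199 higher and 107 lower with the inhibitor against 104 and 60. In both cases 22496 genes were entered in place of 14227, so these counts are not over the same genes. Library totals without TMM shifted the median of all genes in treated old against young HSC by -0.102 and in old against young HSC by -0.084 on the log2 scale; relative to that shift the sterol enzymes stood as before, with 11 members higher and 4 lower in old HSC. Ebp, Insig1, Srebf2, Acly and Scd2, near 0 with age, changed sign there without passing. Hacd3, Tecr, Elovl1, Fnta, Coq2 and Syvn1 were not called with age under library totals (adjusted p 0.0511 to 0.301), nor Fnta and Coq2 under the stricter filter (0.0923 and 0.102).

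In treated old against young HSC the Scd2 call was also lost with the stricter filter (0.12) and with library totals alone (0.07), where Lss was called lower (-0.31); with no filter Insig1 (0.16) and Srebf1 (0.22) were called higher. Over all genes, the stricter filter called 1745 of 9670 genes (18%) lower in treated old than in young HSC. The main fit called 2658 of 14227 (18.7%), a similar share. Library totals called 1588 of 14227 genes higher against 2750. With the inhibitor, 100 of 13147 genes were lower when the compared groups were fitted by themselves, and leaving out each library gave 21 to 150 genes higher and 38 to 113 lower.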
